A study of Mus musculus with 111 samples.

Results

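The genes described here are the heat shock and cold-inducible genes Hspa1a, Hspa1b, Hspa5, Hspa8, Hsp90aa1, Hsph1, Dnajb1, Cirbp and Rbm3. They were chosen by name, and all 9 were found among the 54087 gene names of every count table. RNA-seq was performed on the tuberomammillary nucleus (TMN), the posterior hypothalamic region that holds the brain's histamine neurons, of male and female C57BL/6J mice. The study's methods give 8 to 10 weeks as the age of the purchased mice, and no age of the injected mice at dissection. Each mouse had received an adeno-associated virus (AAV) on both sides of the TMN. GFP-positive tissue was dissected 21 days later under a 12:12 light-dark cycle. GFP mice carried an empty vector, H3.3 mice carried wild-type histone H3.3, and Q5A mice carried H3.3 with alanine at glutamine 5, the residue that takes up histamine, serotonin or dopamine. All vectors also expressed GFP through an IRES, and all groups kept their own histone genes, so the mutant protein was added to the normal one. The question was whether these genes follow the time of day in the TMN and whether the mutant histone changes that course.

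The series gave 32 GFP, 39 H3.3 and 39 Q5A libraries at 6 zeitgeber times (ZT0, 4, 8, 12, 16 and 20, with lights on at ZT0), each from 1 mouse. The labels name 3 cohorts, spread unevenly over virus and ZT. Cohorts 1, 2 and 3 held 28, 4 and 0 GFP, 24, 10 and 5 H3.3, and 26, 10 and 3 Q5A libraries. No cohort 3 library was at ZT0 or ZT20, and the main fits had no cohort term. GFP and H3.3 were pooled as 71 controls, as the study did, with 9 to 14 control and 6 or 7 Q5A libraries at each ZT. Gene rows held 673306 to 3375352 reads per library, which was only 3.49% to 5.63% of the uniquely placed reads. A read was counted only on the strand given to its gene, and the part of this in the low percentage was not tested. Whether that strand is the one that reads of the gene's RNA take in these libraries was not tested either. The counts of every row, members and Hdc included, carry that limit. Hdc, the histamine-making enzyme, had a median of 4 reads and was at 0 in 11 libraries. Other genes listed for histamine neurons had medians of 4 (Gal), 6 (Maob), 16 (Hrh3), 58.5 (Gad1) and 90 (Slc18a2). Of these, Hrh3 and Slc18a2 have a gene on the other strand. Genes listed for oligodendrocytes had medians from 46 (Mog) to 976.5 (Mbp). Tissue was sequenced in bulk, so fewer cells of a type and less RNA per cell cannot be told apart.

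Heat shock proteins fold newly made or damaged proteins. Their inducible members are switched on by the transcription factor HSF1, which binds repeats of GAA and TTC, and body temperature, which in mice is high in the dark phase, is a known daily driver of HSF1 targets. Hspa1a and Hspa1b encode the inducible HSP70 and lie close together on chromosome 17. Hspa8 encodes the constitutive HSP70, Hsp90aa1 an HSP90, Hsph1 (HSP110) a nucleotide exchange factor of HSP70, and Dnajb1 (HSP40) the J-domain partner that hands clients to HSP70. Hspa5 encodes BiP, the HSP70 of the endoplasmic reticulum, which is induced by unfolded protein there. Cirbp and Rbm3 encode RNA-binding proteins that rise with mild cold, and are known to cycle opposite to body temperature.

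Sequences upstream of the transcription start were read from RefSeq (GRCm38.p6), which held a window for 6 of the 9 genes. The window covered 250 bases before and 50 bases after the start, and it was searched for 2 motifs. The heat shock element was taken as GAANNTTC or TTCNNGAA and was found in 15.06% of 32851 windows. The endoplasmic reticulum stress response element, searched on both strands as its CCAAT and CCACG parts held 9 bases apart, was found in 0.1187% (39 windows). The 150 bases before the start are shown for the genes that held a match, with the match in capitals. The positions are chr17:34972157-34972306 (minus strand) for Hspa1a, chr17:34959239-34959388 (minus strand) for Hspa1b, chr5:149636337-149636486 (minus strand) for Hsph1 and chr2:34771940-34772089 (plus strand) for Hspa5.
Hspa1a: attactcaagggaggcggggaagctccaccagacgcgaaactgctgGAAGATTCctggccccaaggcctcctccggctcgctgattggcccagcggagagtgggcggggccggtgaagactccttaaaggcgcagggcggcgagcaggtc
Hspa1b: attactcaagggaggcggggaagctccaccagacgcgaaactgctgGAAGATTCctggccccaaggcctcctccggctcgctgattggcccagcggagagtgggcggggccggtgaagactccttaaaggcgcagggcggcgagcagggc
Hsph1: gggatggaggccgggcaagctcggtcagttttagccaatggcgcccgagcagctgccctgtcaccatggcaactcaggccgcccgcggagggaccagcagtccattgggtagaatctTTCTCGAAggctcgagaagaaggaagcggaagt
Hspa5: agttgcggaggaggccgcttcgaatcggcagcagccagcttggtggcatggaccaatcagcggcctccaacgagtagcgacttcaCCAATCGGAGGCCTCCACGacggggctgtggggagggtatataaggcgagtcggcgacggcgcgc
Hspa1a and Hspa1b differed at 1 of these 150 positions and each held 1 heat shock element at -104. Hsph1 held 3 in the 300 bases of the window shown, of which 1 lay wholly before the start, at -33. A second window of Hsph1 also held 3, with that match at -54. Hspa5 held the endoplasmic reticulum element at -65 and no heat shock element in this form. Neither motif was found in the windows of Dnajb1 and Cirbp, and Hspa8, Hsp90aa1 and Rbm3 had no window.

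Read counts differed widely among the members. Normalised for library size and exon length, the median count over 110 libraries was highest for Hsp90aa1 (29.4 normalised reads per kb). Hspa5 (13.8), Hspa8 (13.2) and Hsph1 (10.99) followed on that scale, then Dnajb1 (4.49), Cirbp (4.10), Hspa1a (1.32), Rbm3 (1.24) and Hspa1b (0.686). This is an order of counted reads, and whether it holds for the transcripts was not tested. In plain reads the median was 113 for Hsp90aa1, 80 for Hsph1, 55 for Hspa8 and 54.5 for Hspa5. It was 14 for Dnajb1, 11 for Cirbp, 6.5 for Rbm3, 4 for Hspa1a and 2 for Hspa1b. Hspa1a was at 0 in 6 libraries, Hspa1b in 15 and Rbm3 in 2, so single values of these genes carry a large counting error. Hspa1b failed the filter on low counts in every fit, and the other 8 members passed it in the fit over all libraries.

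Positions follow the GENCODE M21 annotation of GRCm38. Hspa1a spans chr17:34969190-34972156 and Hspa1b chr17:34956436-34959238, and 82.31% of the 50-base stretches of the Hspa1a coding sequence (1926 bases) also occur in Hspa1b. The study counted only reads above a minimum alignment quality, so reads that fit both genes may have been left out of both rows. How many were left out is not known. The counts of the pair may be too low, and their separate values are uncertain for that reason. Exons of Gm20481 cover 564 bases of Hspa1a on the other strand. Rbm3 (chrX:8138975-8145880) shares 94 bases with its antisense gene Rbm3os (chrX:8145429-8147964), which had a median of 93.5 reads against 6.5 for Rbm3 itself. Exons of Hspa5 (chr2:34771970-34777547), Hspa8 (chr9:40800984-40810087), Hsp90aa1 (chr12:110690605-110702728), Hsph1 (chr5:149614287-149636376), Dnajb1 (chr8:83608193-83612653) and Cirbp (chr10:80165985-80172786) met no exon on the other strand.

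Among the cytosolic partners of HSP70, Dnajb1 had the lowest adjusted p of any member for time of day in controls. Its normalised read count ran from 4.65 to 15.9 at ZT8 (median 10.4, n = 13) and from 11.7 to 35.3 at ZT16 (median 20.8, n = 14). All 14 libraries at ZT16 lay above the ZT8 median, and 10 of them above the highest ZT8 library. Means were 10.3 ± 3.899 (SD) at ZT8 and 20.9 ± 7.23 (SD) at ZT16, a ratio of 2.035. ZT16 stood above ZT8 in each control virus, with 23.1 against 10.1 in GFP and 19.3 against 10.4 in H3.3 (means). At ZT20 the control viruses were apart, with 11.3 ± 3.49 in the 5 GFP libraries and 21.7 ± 10.04 in the 6 H3.3 libraries (SD), the highest mean of H3.3. A 24 h cosinor gave a log2 peak-to-trough difference of 0.83 ± 0.20 (SE) with the fitted peak at 17.7 h (edgeR quasi-likelihood, adjusted p = 0.0112).

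Hsph1 rose in the dark phase as well. In controls its normalised read count was 43.5 to 97.4 at ZT8 (median 63.9, n = 13), 64.1 to 136.5 at ZT16 (median 86.7, n = 14) and 63.1 to 215.9 at ZT20 (median 84.6, n = 11). At ZT20, 10 of 11 libraries were above the ZT8 median and 5 were above every ZT8 library. The cosinor gave a log2 peak-to-trough difference of 0.56 ± 0.15 (SE) with a peak at 18.7 h (edgeR, adjusted p = 0.0233). GFP mice had their highest mean at ZT16 (106.7 ± 25.7, SD, 6 libraries). H3.3 mice had theirs at ZT20 (127.8 ± 57.4, SD, 6 libraries), where 1 library reached 215.9.

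Hspa5, the chaperone of the endoplasmic reticulum, had a peak at 18.3 h with a log2 peak-to-trough difference of 0.59 ± 0.17 (SE, edgeR, adjusted p = 0.0358). Control libraries ran from 33.6 to 71.6 at ZT8 (median 43.9, n = 13), from 48.1 to 103.1 at ZT16 (median 74.2, n = 14) and from 38.9 to 157.0 at ZT20 (median 70.8, n = 11). The ZT16 and ZT8 ranges thus overlapped, while the ZT16 median was above the highest ZT8 library. At ZT20 the control viruses were far apart. The mean was 98.9 ± 44.2 in the 6 H3.3 libraries and 51.8 ± 14.5 (SD) in the 5 GFP libraries.

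Hspa8 and Hsp90aa1 did not pass the test. Hspa8 had control means between 49.9 ± 10.3 at ZT0 and 76.7 ± 34.1 at ZT20 (SD, n = 9 and 11) and a log2 peak-to-trough difference of 0.44 ± 0.18 (SE, edgeR, adjusted p = 0.179). The value for Hsp90aa1 was 0.39 ± 0.16 (SE, edgeR, adjusted p = 0.161), with means from 99.3 ± 24.9 at ZT8 to 148.9 ± 42.5 at ZT20 (SD, n = 13 and 11). The fitted peaks were at 17.6 h for Hspa8 and 20.4 h for Hsp90aa1, within the dark phase like those of the other chaperones. In the mean over ZT20 libraries, H3.3 was again above GFP, at 170.5 against 123.0 for Hsp90aa1 and 95.4 against 54.3 for Hspa8.

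**Figure D1:**
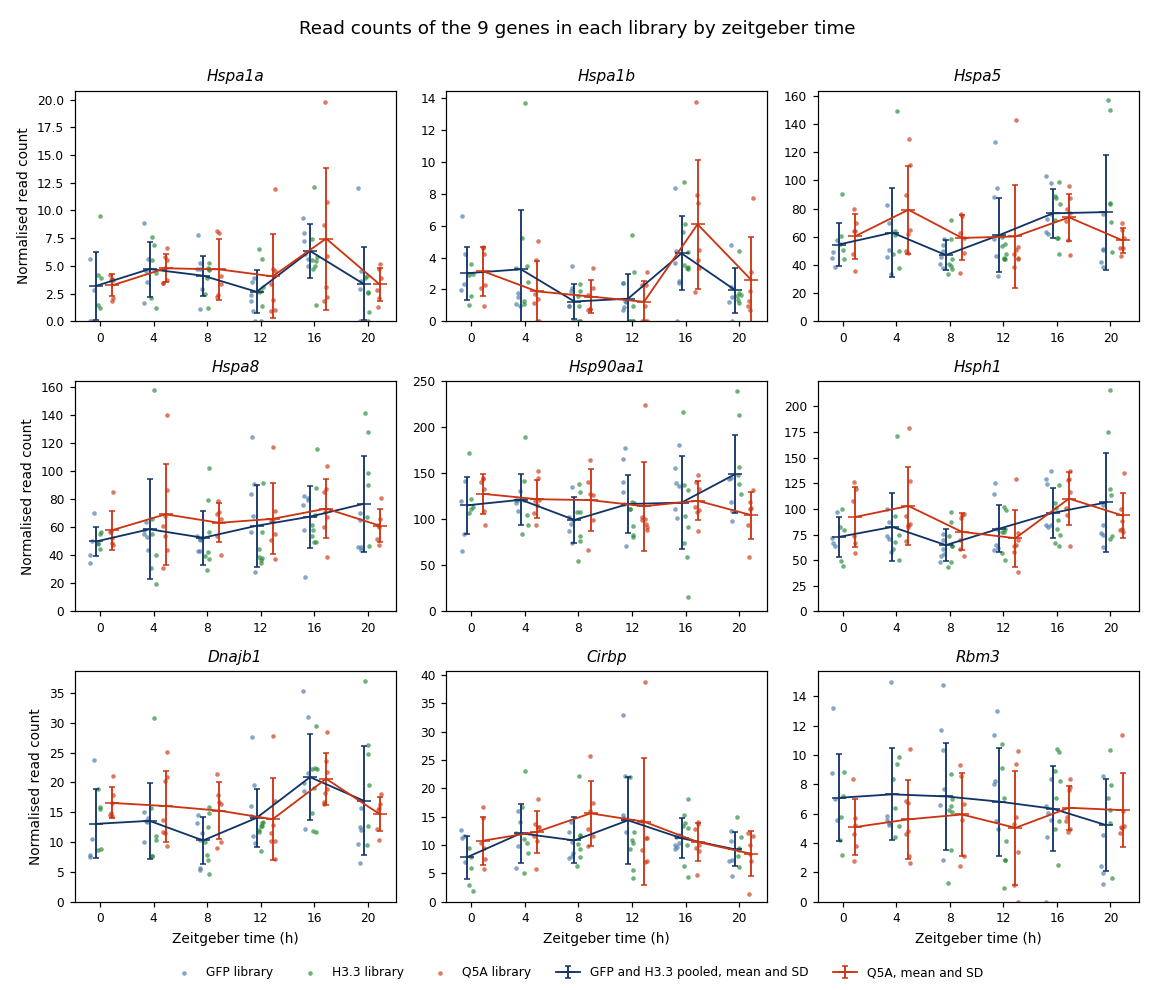
Normalised read count of each gene (vertical axes) against zeitgeber time in hours (horizontal axes), with points for GFP, H3.3 and Q5A libraries and lines for the mean and SD of pooled controls and of Q5A, the axes starting at 0 and cutting the lower end of some SD bars. Dnajb1, Hsph1 and Hspa5 have their highest control means at ZT16 or ZT20, Cirbp at ZT12, and 1 Q5A library at ZT12 stands far above the others for Cirbp (38.9), Hspa5 (142.5) and Hsp90aa1 (223.6).

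Of 7 members tested for time of day in controls, 3 were called at an adjusted p under 0.05, against 11% of all 13264 rows tested (1453). The median log2 peak-to-trough difference was 0.557 over the 7 members and 0.387 over all rows. The hour of the peak has a background too, since 72.05% of the 644 called rows with no exon on the other strand peaked between ZT12 and ZT24, and 34.24% of the 809 other called rows. The 3 calls were Dnajb1, Hsph1 and Hspa5, for which DESeq2 gave adjusted p of 0.00636, 0.0166 and 0.0287. When every library numbered 2, 3 or 4 of cohort 1 was left out, no member was called, and without number 1 only Dnajb1 was (adjusted p = 0.029), while 279 to 438 rows were called in these fits. Over 15 alternatives the adjusted p ran from 0.00482 to 0.0681 for Dnajb1, from 0.00198 to 0.139 for Hsph1 and from 0.0109 to 0.18 for Hspa5.

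The inducible pair Hspa1a and Hspa1b had its highest control mean at ZT16, on very few reads. Hspa1a had 1 to 14 reads per control library at ZT16 and 0 to 10 at ZT12, and its normalised read counts were 6.35 ± 2.48 and 2.67 ± 1.95 (SD, n = 14 and 13). Hspa1b had 4.26 ± 2.32 at ZT16 and 1.24 ± 1.09 at ZT8 (SD, n = 14 and 13), with 8 of 14 ZT16 libraries above the highest ZT8 library. In Q5A mice the highest mean was also at ZT16, with 7.47 ± 6.41 for Hspa1a and 6.09 ± 4.03 for Hspa1b (SD, n = 7). GFP was an exception, where Hspa1b was highest at ZT0 (3.77 ± 2.12, SD, n = 4). Neither gene passed the filter on low counts for the control cosinor. Without that filter the adjusted p was 0.832 for Hspa1a and 0.294 for Hspa1b (edgeR).

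Of the cold-inducible genes, Cirbp had its highest control mean at ZT12, but did not pass the test. Control libraries ran from 1.97 to 12.7 at ZT0 (median 7.93, n = 9), from 4.24 to 33.0 at ZT12 (median 12.4, n = 13) and from 4.53 to 15.0 at ZT20 (median 9.21, n = 11). At ZT12, 11 of 13 libraries lay above the ZT0 median and 6 above the highest ZT0 library. At ZT12 the mean of GFP was 18.6 ± 7.78 (SD, 6 libraries), with 1 library at 33.0 in which genes with no exon on the other strand took 25.1% of the reads. In H3.3 the mean was 10.7 ± 5.79 at ZT12 and highest at ZT4 (12.5 ± 6.44, SD, 7 and 6 libraries). The log2 peak-to-trough difference was 0.63 ± 0.21 (SE) with a peak at 11 h (edgeR, adjusted p = 0.0883). Among the members tested, Cirbp and Rbm3 were those with a fitted peak outside ZT12 to ZT24.

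Rbm3 had 0 to 23 reads per control library, and its course did not pass the test. Its control means were 7.32 ± 3.13 at ZT4 and 5.22 ± 3.13 at ZT20 (SD, n = 11 in each), and the log2 peak-to-trough difference was 0.34 ± 0.26 (SE) with a peak at 6.5 h (edgeR, adjusted p = 0.566). With an SE of that size the estimate is imprecise, and how large a daily change could be detected at this depth was not tested. The row of the antisense gene Rbm3os, in contrast, passed with 0.47 ± 0.14 (SE) and a peak at 8.8 h (edgeR, adjusted p = 0.0384). Whether the reads of that row came from Rbm3os or from Rbm3 on the other strand was not tested. In that row control libraries ran from 68.3 to 157.9 at ZT8 (median 120.8, n = 13) and from 42.7 to 122.4 at ZT20 (median 72.6, n = 11). There, 5 of 13 ZT8 libraries were above every ZT20 library. With ZT as a factor in place of the cosinor Rbm3os was not called (adjusted p = 0.126), and without the 4 libraries named in the next paragraph its adjusted p was 0.0872 (0.00876 to 0.231 over 15 alternatives).

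The chaperones moved together with a property of the whole library. In each library the share of reads in 14639 protein-coding rows with no exon on the other strand, members left out, ranged from 8.41% to 27.3% (median 11.6%). This share of unopposed reads was measured after the data had been seen. In controls its mean was 10.7% ± 1.74 at ZT8, 12.7% ± 2.15 at ZT16 and 13.8% ± 4.31 at ZT20 (SD, n = 13, 14 and 11), with its highest and lowest means at the hours of the highest and lowest means of Hspa5 and Hsph1. At ZT12 the share was 13.2% ± 4.69 (SD, n = 13), above ZT16, while Dnajb1 (14.1 against 20.9), Hspa5 (61.2 against 76.6) and Hsph1 (80.7 against 96.0) had lower means at ZT12 than at ZT16. Of the libraries, 4 exceeded 20%, namely Q5A ZT12 cohort 2 replicate 1 (27.3%), GFP ZT12 cohort 2 replicate 1 (25.1%), and replicates 2 and 3 of cohort 1 of H3.3 at ZT20 (21.8% and 21.5%).

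With the share as a covariate, 6.53% of rows (866) and 1 of the 7 members were called in controls. The call was Cirbp, whose log2 peak-to-trough difference stayed at 0.63 with a peak at 9.2 h (edgeR, adjusted p = 0.0457). The value was 0.57 for Dnajb1 (adjusted p = 0.0514), 0.32 for Hsph1 (0.119), 0.28 for Hspa5 (0.145) and 0.11 for Hspa8 (0.848). Without the 4 libraries over 20% Dnajb1 alone was called, at 0.73 (edgeR, adjusted p = 0.0329), and the adjusted p was 0.11 for Hsph1, 0.128 for Hspa5 and 0.2 for Cirbp. Over 15 alternatives the adjusted p of Cirbp ran from 0.0457 to 0.363 and that of Hspa8 from 0.0316 to 0.848. Whether the share sets the levels of these genes, or both follow something else, was not tested.

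**Figure D2:**
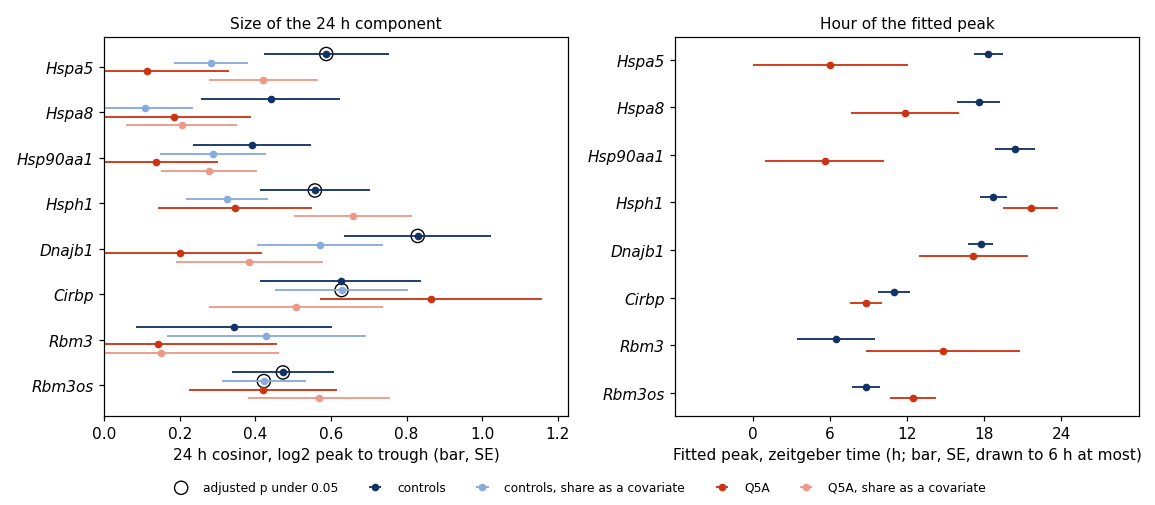
Left, log2 peak-to-trough difference of the 24 h cosinor (horizontal axis, bars SE) for each gene in controls and in Q5A, with and without the share of unopposed reads as a covariate, with circles where the adjusted p was under 0.05. Right, fitted peak in hours of zeitgeber time (bars SE, drawn to 6 h at most). In controls the chaperones peak from 17.6 to 20.4 h and Cirbp at 11 h, and the values of Hspa5, Hspa8 and Hsph1 shrink with the covariate.

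Between libraries of the same virus and ZT the chaperones were high in the same animals. With the group mean removed, 19 of the 36 pairs of members correlated at an adjusted p under 0.05 by Pearson's r, and 16 by Spearman's rho as well (permutation test within groups, 110 libraries, 100000 resamples, 2-sided). The test was not run on pairs of other rows, so whether the members correlate more often than other rows is not known. The strongest pairs were Hspa5 with Hsph1 (r = 0.72, rho = 0.65), Hspa5 with Hspa8 (r = 0.70, rho = 0.64) and Hspa8 with Hsph1 (r = 0.69, rho = 0.66). Each had a permutation p of 1e-05, the smallest the resamples can give, and an adjusted p of 5.14e-05 for r. Without the 2 libraries farthest from the median of the first gene, r was 0.68, 0.65 and 0.66. Within cohort 1 alone r was 0.72, 0.73 and 0.65 (n = 78).

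Among Hspa5, Hspa8, Hsp90aa1, Hsph1 and Dnajb1, a set of 5 picked after their values were seen, r ran from 0.27 to 0.72 with a median of 0.505. Once the share of unopposed reads was also regressed out, it ran from -0.05 to 0.37 with a median of 0.171. Hspa5 itself correlated with the share at r = 0.83 (rho = 0.75), Hspa8 at 0.73 (0.67), Hsph1 at 0.70 (0.62), Dnajb1 at 0.56 (0.48), Cirbp at 0.53 (0.48) and Hsp90aa1 at 0.44 (0.51), each with an adjusted p of 2e-05 to 3.33e-05 over 10 genes (permutation test). Without the 2 farthest libraries these r were 0.79, 0.70, 0.65, 0.48, 0.51 and 0.60. Within cohort 1 they were 0.81, 0.74, 0.65, 0.33, 0.40 and 0.56 (n = 78).

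Cirbp correlated with each of these 5 as well, past both tests. Its r was 0.47 with Hspa5, 0.32 with Hsp90aa1, 0.31 with Dnajb1, 0.29 with Hsph1 and 0.28 with Hspa8 (permutation test, adjusted p over the 36 pairs of 5.14e-05 to 0.0136). With the share also regressed out these r lay between -0.18 and 0.10.

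The low-count members had weaker correlations. Hspa1b correlated with Hsph1 past both tests (r = 0.33, rho = 0.25, permutation test, adjusted p = 0.00481 and 0.0315). By Pearson's r alone, Hspa1b also passed with Hspa8 (r = 0.26) and Dnajb1 (r = 0.23), and Hspa1a with Hsph1 (r = 0.24). Hspa1a and Hspa1b, neighbours with nearly the same upstream sequence, had medians of only 4 and 2 reads, too few for a firm r. They did not correlate with each other (r = 0.05, rho = 0.05, permutation p = 0.645, adjusted over the 36 pairs 0.664). Neither did Cirbp and Rbm3 (r = 0.10). Rbm3 correlated with no other member and with the share at r = 0.16 (permutation p = 0.156). Rbm3os ran against the chaperones, at r = -0.66 with Hspa8 (rho = -0.62) and -0.50 with the share (rho = -0.51), and at 0.03 with Rbm3 (permutation test, p = 1e-05, 4e-05 and 0.756).

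**Figure D3:**
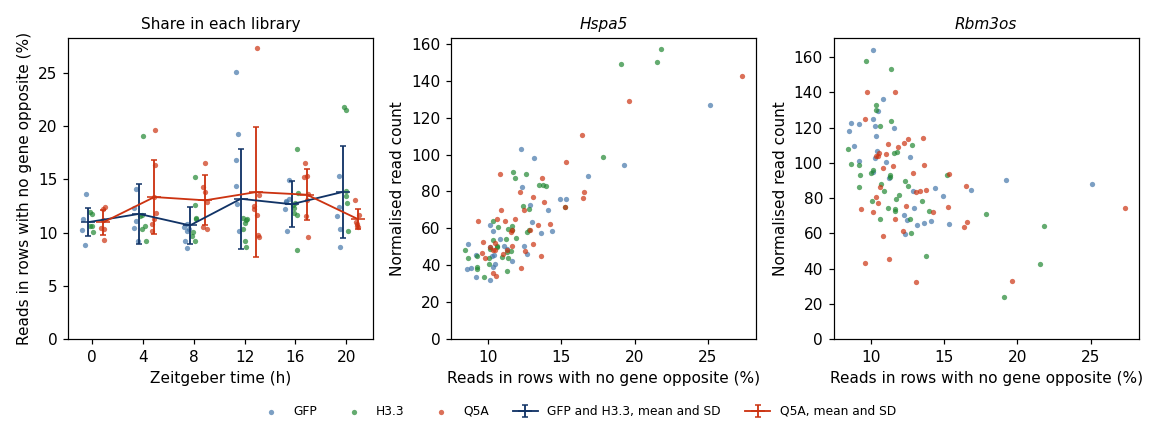
Left, percent of gene-row reads in rows with no gene on the other strand in each library against zeitgeber time in hours, with the mean and SD of controls and Q5A. Middle and right, normalised read count of Hspa5 and Rbm3os against that percent. Hspa5 climbs with the share in all viruses and Rbm3os declines, and the 4 libraries over 20% have Hspa5 counts of 126.9 to 157.0.

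**Figure D4:**
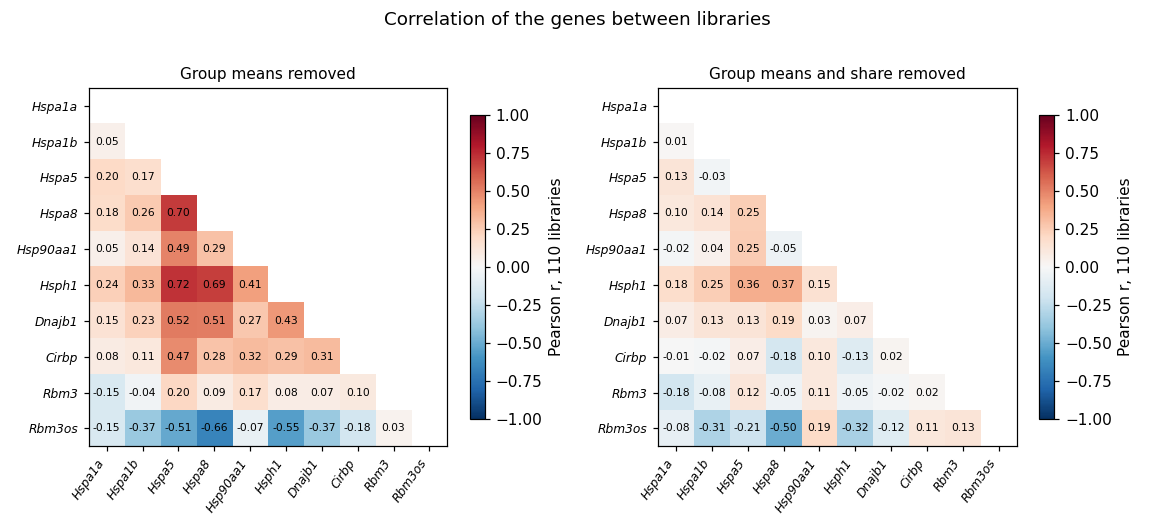
Pearson r of each pair of genes over 110 libraries, with the mean of each virus and ZT group removed (left) and with the share of unopposed reads removed as well (right), colour running from -1 to 1. The block of Hspa5, Hspa8 and Hsph1 at 0.69 to 0.72 on the left lies at 0.25 to 0.37 on the right.

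In Q5A mice none of the 7 members tested was called for time of day (edgeR, adjusted p under 0.05), against 0.239% of 11706 rows (28). Cirbp came nearest, with the largest mean at ZT8. Its normalised read counts ran from 9.82 to 25.7 at ZT8 (median 14.4, n = 6) and from 1.28 to 12.2 at ZT20 (median 9.25, n = 6), and 4 of 6 ZT8 libraries were above every ZT20 library. The log2 peak-to-trough difference was 0.87 ± 0.29 (SE) with a peak at 8.8 h (unadjusted p = 0.0178, edgeR adjusted p = 0.256). Cirbp was the only member with an unadjusted p under 0.05, against 1694 of 11706 rows. Hsph1 had 0.35 ± 0.20, Dnajb1 0.20 ± 0.21, Hspa8 0.18 ± 0.20, Hsp90aa1 0.14 ± 0.16, Rbm3 0.14 ± 0.31 and Hspa5 0.11 ± 0.22 (SE). DESeq2 called 85 rows and no member, and 1 member had an unadjusted p under 0.05 there too. Within cohort 1 alone edgeR called 947 of 11355 rows and no member.

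The levels of the chaperones in Q5A are given by hour as a description. Dnajb1 ran from 16.5 to 28.5 at ZT16 (median 18.98, n = 7) and from 7.15 to 27.8 at ZT12 (median 11.5, n = 7). All 7 ZT16 libraries were above the ZT12 median, and 1 was above the highest ZT12 library, which is the one with 27.3% unopposed reads. Its mean was highest at ZT16, as in controls (20.6 ± 4.36, SD), and lowest at ZT12 (13.8 ± 6.86, SD). Hsph1 also had its highest mean at ZT16, 1.541 times its lowest at ZT12 (71.4 ± 27.9, SD, n = 7 in each). Hspa5 was instead highest at ZT4 (79.1 ± 31.4, SD, n = 7) and lowest at ZT20 (57.4 ± 8.99, SD, n = 6), with 3 of 7 ZT4 libraries above every ZT20 library. The cold-inducible Rbm3 had means from 5.04 ± 3.88 at ZT12 to 6.41 ± 1.497 at ZT16 (SD, n = 7 in each), a difference below either SD.

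The difference in rhythm between Q5A and controls was tested directly as an interaction. No member passed, of 8 tested, with 0.122% of 13891 rows called (17, edgeR, adjusted p under 0.05). The number of rows called depended on the cohorts, since within cohort 1 alone 777 of 12640 rows were called, and no member. In the fit over all cohorts Hspa5 had the largest log2 peak-to-trough difference between the courses, 0.67 ± 0.27 (SE, edgeR, unadjusted p = 0.0478, adjusted p = 0.343). It was the only member with an unadjusted p under 0.05, against 2007 of 13891 rows. DESeq2 called 10 rows and no member, with no member at an unadjusted p under 0.05. Dnajb1 followed with 0.61 ± 0.30 (SE, adjusted p = 0.438). The others had 0.37 to 0.49, with adjusted p of 0.485 for Hsp90aa1, 0.571 for Hsph1, 0.609 for Hspa8, 0.658 for Cirbp, 0.724 for Rbm3 and 0.893 for Hspa1a. For Dnajb1, Hsph1 and Hspa5, the members called in controls, the course was thus not called in Q5A without being shown to differ, and Q5A had 39 libraries against 71.

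Levels over all ZT did not separate Q5A from controls for any of 8 members (edgeR, adjusted p under 0.01, 0.0144% of 13891 rows called, 2 in number). No member had an unadjusted p under 0.05, against 750 rows with edgeR and 789 with DESeq2, which called none. The log2 difference, Q5A minus controls, was 0.16 ± 0.18 for Hspa1a, 0.14 ± 0.11 for Dnajb1, 0.12 ± 0.084 for Hsph1, 0.12 ± 0.12 for Cirbp, 0.11 ± 0.10 for Hspa8, 0.054 ± 0.096 for Hspa5, -0.0077 ± 0.087 for Hsp90aa1 and -0.20 ± 0.15 for Rbm3 (SE). The median over the members was 0.113 and over all rows 0.00197. Library ranges overlapped almost completely, with Dnajb1 at 7.15 to 28.5 in Q5A (median 16.5, n = 39) and 4.65 to 37.1 in controls (median 13.2, n = 71). The mean share of unopposed reads was higher in Q5A than in controls at ZT4, ZT8, ZT12 and ZT16, equal at ZT0 (10.99%) and lower at ZT20.

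H3.3 and GFP, the pooled controls, did not differ in level over all ZT for any member either (edgeR, 0% of 13891 rows called at an adjusted p under 0.01). Their difference at single hours or in rhythm was not tested. At ZT20 the H3.3 mean was above the GFP mean for Hspa5 (98.9 against 51.8), Hspa8 (95.4 against 54.3) and Dnajb1 (21.7 against 11.3). An unadjusted p under 0.05 was found for 526 rows with edgeR and 548 with DESeq2, which also called none, and for no member with edgeR. The log2 difference, H3.3 minus GFP, ran from -0.17 ± 0.18 for Rbm3 to 0.098 ± 0.12 for Hspa5 (SE).

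At each ZT on its own, Q5A against controls gave no call in 10008 to 10922 rows (0% at each ZT, edgeR, adjusted p under 0.01). Rows with an unadjusted p under 0.05 numbered 160 to 1856, and DESeq2 called 8 rows at ZT8, 1 at ZT20 and no member. At ZT8, 3 of 7 members had an unadjusted p under 0.05 with edgeR, against 1856 of 10251 rows. Dnajb1 alone had one with DESeq2, against 1914 rows. With the share of unopposed reads as a covariate in edgeR, no member and 546 rows had one. Dnajb1 was at 9.002 to 21.5 in Q5A (median 16.6, n = 6) and 4.65 to 15.9 in controls (median 10.4, n = 13), a log2 difference of 0.60 ± 0.26 (SE, unadjusted p = 0.031, adjusted p = 0.244). Cirbp was at 9.82 to 25.7 against 6.22 to 22.3, a log2 difference of 0.56 ± 0.25 (SE, unadjusted p = 0.0365, adjusted p = 0.253). Hspa5 was at 34.4 to 76.4 against 33.6 to 71.6, a log2 difference of 0.37 ± 0.18 (SE, unadjusted p = 0.0464, adjusted p = 0.269). The groups overlapped for all 3 genes. The share of unopposed reads was 13.0% ± 2.36 in Q5A and 10.7% ± 1.74 in controls at ZT8 (SD, n = 6 and 13), and with it as a covariate the log2 differences were 0.27 for Dnajb1, 0.18 for Cirbp and -0.013 for Hspa5.

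ZT20 had the opposite order for Hsp90aa1. Q5A libraries ran from 58.9 to 131.5 (median 112.0, n = 6) and controls from 98.4 to 239.1 (median 143.7, n = 11), a log2 difference of -0.52 ± 0.20 (SE, unadjusted p = 0.0158, edgeR adjusted p = 0.397). It was the only one of 6 members tested with an unadjusted p under 0.05 at that hour, against 1123 of 10008 rows. The value for Hsp90aa1 was -0.26 with the share as a covariate. Hspa5 had -0.46 ± 0.28 (SE) and 0.064 with the covariate. At ZT0, ZT4, ZT12 and ZT16 no member had an unadjusted p under 0.05.

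JTK_CYCLE, the rank-based rhythm test of the study, was applied with periods of 8 to 24 h. In controls it called 4 of 8 members, against 16.8% of 13891 rows (2340). These were Hspa1a (adjusted p = 0.00235, period 12 h), Hspa5 (0.00484, 20 h), Dnajb1 (0.00554, 20 h) and Hsph1 (0.0153, 24 h), by an exact permutation null for each template. That adjustment covers the 20 templates only, and no member had a Benjamini-Hochberg q under 0.05 over all rows, where 410 rows did. Within cohort 1 alone 1 member was called. Rbm3os was called with a period of 24 h and a peak at ZT8 (adjusted p = 0.00297, exact null).

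In GFP alone Hsph1 was called (adjusted p = 0.0312, exact null, 13.5% of rows called), and in H3.3 alone Hspa5 (0.00087) and Dnajb1 (0.0242) were (7.65% of rows). Hspa5 peaked at ZT20 in H3.3, where 2 of the 6 libraries are those with a share over 20%, and without the 4 libraries over 20% H3.3 had 1 call. In Q5A none of the 8 members was called by JTK_CYCLE, against 4.54% of rows (631), and 1 was within cohort 1.

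Other folding genes were taken from a list of 46 chaperones, co-chaperones and stress regulators. Of 43 tested for time of day in controls, 7 were called, against 11% of all rows (1453 of 13264). All 7 had a peak between ZT12 and ZT24, a window that held 51.0% of all called rows and 72.05% of those with no exon on the other strand. These were the distant HSP70 relative Hspa12a (log2 peak-to-trough 0.89 ± 0.18, SE, peak 19.6 h, edgeR adjusted p = 0.00301), the HSP90 co-chaperone Chordc1 (1.08 ± 0.23, 18.9 h, 0.00454), the constitutive HSP90 gene Hsp90ab1 (0.48 ± 0.11, 18.7 h, 0.0117), the small heat shock gene Cryab (1.01 ± 0.25, 19.9 h, 0.0165), the HSP70 cofactor St13 (0.60 ± 0.15, 19.3 h, 0.0170), the J-domain gene Dnajb4 (0.85 ± 0.22, 15.7 h, 0.0218) and the HSP110 relative Hspa4l (0.68 ± 0.19, 20.9 h, 0.0338). Hspa12a and Cryab have a gene on the other strand. The median over the 43 was 0.481, against 0.387 for all rows. With the share as a covariate the list's median was 0.275. Cryab (adjusted p = 0.0593) and Dnajb4 (0.157) were then not called, and the other 5 had an adjusted p of 0.00561 to 0.0492, where 6.53% of rows were called. DESeq2 called 10 of the 43 in controls, against 13.3% of rows (1770), all with a peak between ZT12 and ZT24.

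In Q5A none of 39 tested genes of that list was called (edgeR, 2 with an unadjusted p under 0.05), and none of 44 in the interaction or in the level over all ZT (10 and 1 with an unadjusted p under 0.05). Over all rows an unadjusted p under 0.05 was found for 1694 of 11706 in Q5A. It was found for 2007 of 13891 in the interaction and 750 of 13891 in the level. DESeq2 called 1 gene in Q5A, Cryab (0.726% of all rows called), with 3 at an unadjusted p under 0.05, and none in the interaction or the level (11 and 1). The log2 peak-to-trough difference of Cryab in Q5A was 1.17 with edgeR (adjusted p = 0.0989) and 1.1996 with DESeq2 (adjusted p = 0.0362). From a list of 13 temperature-linked RNA-processing genes, mostly kinases and splicing factors, 12 were tested in controls and none was called (edgeR, 7 with an unadjusted p under 0.05, against 4094 of all 13264 rows). DESeq2 called 1 of them, the splicing factor Srsf3 (adjusted p = 0.0416). None of the 11 tested in Q5A was called with edgeR or DESeq2 (3 and 2 with an unadjusted p under 0.05).

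The profile over the 18 groups of virus and ZT was compared with that of every other row with a mean normalised count of at least 20, as a description over group means that share libraries' depth and composition. Hspa5 was most like Gtf2i (r = 0.94), Hsp90ab1 (0.92) and Calr (0.91), the last a chaperone of the same compartment. Dnajb1 was most like Gtf2i (0.92), Hspa5 (0.90) and Hsp90ab1 (0.87), and Hsph1 like Hsp90ab1 (0.86), Hnrnpul2 (0.86) and Calr (0.85). Hspa8 was most like Mapt (0.94), Vdac1 (0.93) and Ywhab (0.93), and Hsp90aa1 like Myo5a (0.85), Etnk1 (0.84) and Kif21a (0.84). Cirbp was most like Usp11 (0.88), Blcap (0.86) and B4galnt4 (0.86). For the low-count members the highest values were lower, at 0.80 for Hspa1a with Cacnb4, 0.78 for Rbm3 with Meg3 and 0.74 for Hspa1b with AC147266.3.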

How the data were processed

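TMN tissue of AAV-injected mice was sequenced as RNA, with 1 library per animal. According to the submitters' processing notes, the authors used bcl2fastq, aligned to GRCm38 with STAR 2.7.11b, counted with HTSeq 2.0.5 and tested with DESeq2 1.44.0. The study's methods give a stranded ligation kit and the HTSeq option stranded=yes. The deposited values are raw read counts per gene name and library. Of 111 libraries, a pair of Q5A libraries at ZT4 (cohort 2, replicates 2 and 3) differed by less than sampling noise and was counted as 1 sample, which left 110. The 5 entries for unassigned reads were left out of library sizes and tests. A further 18 files tied to no sample were not used.

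Tests ran in edgeR 4.0.16 (R 4.3.3) with TMM scaling, filterByExpr (minimum count 10, minimum total 15), the quasi-likelihood F test and Benjamini-Hochberg adjustment over all rows tested. They comprised a 24 h cosinor in controls (virus as a covariate) and in Q5A, their interaction over all libraries, and level comparisons with ZT as a factor or within 1 ZT. The cosinor value is the log2 peak-to-trough difference. JTK_CYCLE was reimplemented with 20 templates and an exact null. Normalised read counts were scaled by the median-of-ratios method over 9428 rows, and correlations used their log2 values with a pseudocount of 1. Alternatives comprised DESeq2 1.42.0, other scaling and filters, cohort terms, a replicate block and left-out libraries. The share of unopposed reads as a covariate, the fits without the 4 libraries over 20% and a JTK_CYCLE null over the 6 time points were added after seeing the data. Procedures were tested on simulated data. Python 3.11.15, numpy 2.4.6, pandas 2.3.3, scipy 1.17.1 and bedtools 2.31.1 were used.

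The members and lists were chosen with earlier results of these data known. Genes named besides the 9 members are those with exons opposite a member, up to 10 folding-list genes with the smallest p past the threshold in controls, and the 3 rows most like each member over the 18 group means. Genes cited for tissue or values outside this rule were Hdc, Gal, Maob, Hrh3, Gad1, Slc18a2, Mog, Mbp, Srsf3, and Cryab in Q5A.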

Additional observations from a re-analysis of the deposited data

Results flagged for a closer look

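A library stood apart from the rest of its virus and ZT group by Dixon's 95% criterion in 20 of the 162 groups tested for the 9 members (21 of 180, 11.67%, with Rbm3os). Chance gives about 1 in 20 groups, and the genes are not independent of each other. Values are normalised read counts.

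A single library gave several of these. H3.3 ZT4 cohort 3 replicate 1 was high for Hspa1b (13.7), Hspa5 (149.0), Hspa8 (157.6), Hsph1 (171.3) and Dnajb1 (30.8), against medians of the other libraries of 2.46, 50.1, 40.6, 68.2 and 10.4, and its share of unopposed reads was 19.1%. Q5A ZT12 cohort 2 replicate 1, with the largest share (27.3%), was high for Hspa5 (142.5), Hspa8 (117.5), Hsp90aa1 (223.6), Hsph1 (128.6) and Cirbp (38.9), against 46.5, 60.0, 97.1, 64.2 and 10.2. The part of the share in these values was not tested.

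Among the inducible genes, Hspa1a was high in Q5A ZT12 cohort 3 replicate 1 (11.9), and Hspa1b in H3.3 ZT20 cohort 1 replicate 3 (4.39) and Q5A ZT20 cohort 1 replicate 4 (7.74). Hspa8 was high in Q5A ZT0 cohort 2 replicate 2 (85.1) and H3.3 ZT12 cohort 3 replicate 1 (91.7), and Hsp90aa1 in H3.3 ZT0 cohort 1 replicate 1 (172.2). Dnajb1 was low in H3.3 ZT12 cohort 1 replicate 1 (8.48). Cirbp was high in H3.3 ZT8 cohort 1 replicate 3 (22.3), Rbm3 in GFP ZT4 cohort 1 replicate 1 (15.0) and Q5A ZT20 cohort 2 replicate 2 (11.4), and Rbm3os in GFP ZT12 cohort 1 replicate 3 (163.9).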

How the results depend on the processing

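Hspa1a, Hspa1b and Rbm3 had medians of only 4, 2 and 6.5 reads. Of 7 members, 3 were called for time of day in controls; DESeq2, no filter, upper quartile scaling, cohort as a covariate and cohort 1 alone gave 3, ZT as a factor 2 and the replicate block 4, adding Hspa8 (adjusted p = 0.0316). The share of unopposed reads as a covariate gave 1, the fit without the 4 libraries over 20% gave 1, and leaving out 1 replicate number of cohort 1 gave 0 to 3. Over the alternatives, rows called ranged from 279 to 2178 in controls, from 5 to 947 in Q5A and from 2 to 777 in the interaction. Numbers did not pair libraries: deviations of same-numbered libraries correlated at a mean r of 0.0289 (778 pairs), others at 0.0196, and 36 of 108 libraries correlated best with their own number.

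JTK_CYCLE calls among members in controls (4) were 0 at a Benjamini-Hochberg q and 1 in cohort 1, and in Q5A (0) 1 in cohort 1. In GFP (1) they were 0 at the q, 2 on TMM-scaled counts, 0 in cohort 1, 0 with 24 h templates, 0 with the null over the 6 time points and 0 to 4 with a replicate number left out. In H3.3 (2) they were 0 at the q, 1 without the 4 libraries over 20%, and 1 to 2 with a replicate number left out. No alternative called a member in Q5A by cosinor, in the interaction or in any level comparison. The replicate block changed no other call.

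The level difference of Hsp90aa1 between Q5A and controls, near 0, turned to 0.017 with H3.3 alone as the control, 0.0077 with cohort as a covariate, 0.0053 without the filter, 0.0072 with upper quartile scaling and 0.011 without 4 libraries that earlier work on these data had set apart, and was -0.031 to 0.059 with a replicate number left out. With the share as a covariate Hspa5 turned to -0.014 over all ZT and -0.013 at ZT8, r turned to -0.0497 for Hspa8 with Hsp90aa1, -0.18 for Hspa8 with Cirbp and -0.13 for Hsph1 with Cirbp, and the median r of the 5 chaperones fell to 0.171. The causes were not tested.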
